A study of Mus musculus with 18 samples.

Results

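A set of 10 genes of neural progenitors and Notch signaling, Sox1, Sox2, Sox3, Nes, Fabp7, Vim, Msi1, Hes1, Hes5 and Notch1, were followed in RNA-seq of whole mouse embryos at E11.5. The members were chosen by name from the biology of the early nervous system, and all 10 were found among the 34245 genes listed for these embryos. Levels were deposited in FPKM, that is, reads scaled to the length of the gene and to the depth of the library. There were 9 embryos of the FVB strain, 3 of each genotype, with 1 library from each independent embryo: Dnmt3b+/+, Dnmt3b-/-, in which both copies of the de novo DNA methyltransferase Dnmt3b carry a conventional knockout allele in every cell, and Dnmt3bCI/CI, in which both copies encode a protein with substitutions in the catalytic site, introduced by genome editing and expressed from the endogenous locus. No other allele or agent was used, and only live embryos had been processed. The comparisons asked whether these genes differed in embryos without Dnmt3b and whether the inactive protein left them at the Dnmt3b+/+ level.

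Sox1, Sox2 and Sox3 form the SoxB1 group of transcription factors, which keep cells of the neural tube in the progenitor state. Notch receptors are cleaved once a ligand on a neighboring cell binds them, and the released fragment joins the DNA-binding protein Rbpj and switches on Hes genes, whose products repress the proneural genes that start neuronal differentiation. In the embryonic brain and spinal cord, high SoxB1 and Notch activity mark dividing cells along the ventricle, and both decline as neurons form.

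The promoters of the Notch target Hes5 and of Sox1 are shown because both hold the core of the Rbpj site, and because Sox1 was among the genes that differed most between the mutant genotypes. Promoters from 250 bases before to 50 bases after the transcription start were available from RefSeq on GRCm38.p6 for 7 of the 10 members, and Sox3, Msi1 and Hes1 were not matched. Capitals mark the letters TGGGAA or, on the other strand, TTCCCA. Both runs lie on the plus strand, Hes5 at chr4:154960673-154960972 and Sox1 at chr8:12395269-12395568.
Hes5: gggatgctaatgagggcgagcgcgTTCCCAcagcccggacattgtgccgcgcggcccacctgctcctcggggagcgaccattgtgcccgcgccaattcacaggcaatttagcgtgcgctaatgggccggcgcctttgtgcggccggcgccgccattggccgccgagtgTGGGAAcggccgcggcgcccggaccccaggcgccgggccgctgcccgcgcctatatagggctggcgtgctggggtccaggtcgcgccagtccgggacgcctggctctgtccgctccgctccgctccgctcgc
Sox1: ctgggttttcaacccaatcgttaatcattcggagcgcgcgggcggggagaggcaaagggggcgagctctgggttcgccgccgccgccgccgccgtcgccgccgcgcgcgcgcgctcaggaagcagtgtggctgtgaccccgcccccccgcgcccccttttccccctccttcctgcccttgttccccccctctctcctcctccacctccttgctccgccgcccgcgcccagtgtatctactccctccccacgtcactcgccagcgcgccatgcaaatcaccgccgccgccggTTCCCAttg
The Hes5 window held a core on each strand, starting at −226 and −82 from the transcription start, and the Sox1 window held 1, starting 41 bases after it. Starts are those of RefSeq and can differ from the GENCODE gene bounds given below. Fabp7 held 1 as well, at the far end of its window, whereas Sox2, Nes, Vim and Notch1 held none in these letters. Across all 32851 promoters of this length, 25.6% held the core and 3.79% held it at least 2 times. The N box CACNAG, bound by Hes factors, occurred in 3 of the 7 (Fabp7, Vim and Notch1) against 42.5% of all promoters, and the E box CANNTG in 3 (Sox2, Fabp7 and Hes5) against 72.3%, each counted on both strands.

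The libraries rested on 38451729 to 49808777 reads, and the members had 354 to 25661 reads in a library, so counting error was small beside the spread between embryos. Dnmt3b itself was listed at 2.25, 1.62 and 2.04 FPKM in Dnmt3b+/+, at 2.45, 3.12 and 3.33 FPKM in labelled Dnmt3b-/- libraries and at 2.06, 1.98 and 2.32 FPKM in Dnmt3bCI/CI. The summed value does not show whether a deleted exon is missing, so it checks nothing, and the embryos are called labelled Dnmt3b-/- below. Individual libraries stood apart from their group. In Dnmt3b+/+ embryo 2, the hepatocyte genes Afp and Alb were at 0.119 and 0.103 FPKM against 52.0 to 93.3 and 43.7 to 85.7 FPKM in the other two. In Dnmt3bCI/CI embryo 2, 6 genes of forebrain patterning summed to 0.359 FPKM against 6.30 and 10.3 FPKM in the other two and 15.4 to 17.2 FPKM in Dnmt3b+/+, and Emx1, a gene of the cortical primordium, was at 0.0212 FPKM. In labelled Dnmt3b-/- embryos 2 and 3, the trunk gene Hoxb9 was at 1.39 and 0.920 FPKM, against 31.0 FPKM in embryo 1 and 10.4 to 28.3 FPKM in the other genotypes, while the more posterior Hoxa10 was at 7.53 and 4.46 FPKM, within the range of Dnmt3b+/+. RNA came from whole embryos, so fewer cells of a type and less RNA per cell cannot be told apart.

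The SoxB1 genes were highest in labelled Dnmt3b-/- embryos and lowest in Dnmt3bCI/CI, and the direct comparison of the mutant genotypes carried the difference. Of the 10 members, 6 (Sox1, Sox2, Sox3, Nes, Msi1 and Notch1) were called higher in labelled Dnmt3b-/- embryos than in Dnmt3bCI/CI by limma, at a Benjamini-Hochberg adjusted p under 0.05 over 19397 genes, and 0 were called lower. The background in this comparison was 9.70% of all tested genes higher and 18.2% lower. All 6 also had every labelled Dnmt3b-/- embryo above every Dnmt3bCI/CI embryo, which held for 16.7% of genes, and no other member did. Against Dnmt3b+/+, only Nes was called in labelled Dnmt3b-/- embryos (higher; background 9.41%), 0 members were lower (background 16.4%), and 0 members were called in Dnmt3bCI/CI in either direction (background 0.129% higher and 0.0155% lower). With quantile normalization in place of the deposited scaling, the genes called between the mutant genotypes became 2840 higher and 2281 lower, from 1882 and 3525, and those between labelled Dnmt3b-/- and Dnmt3b+/+ became 2236 and 2044, from 1826 and 3175. That scaling moved the median of all genes by 0.11 and 0.10 on the log2 scale. The background also moved with single embryos left out, and was largest without labelled Dnmt3b-/- embryo 1. For labelled Dnmt3b-/- against Dnmt3b+/+ it ran from 4.19% to 12.1% higher and from 8.19% to 23.6% lower. Between the mutant genotypes it ran from 5.26% to 12.4% higher and from 10.1% to 25% lower.

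**Figure D1:**
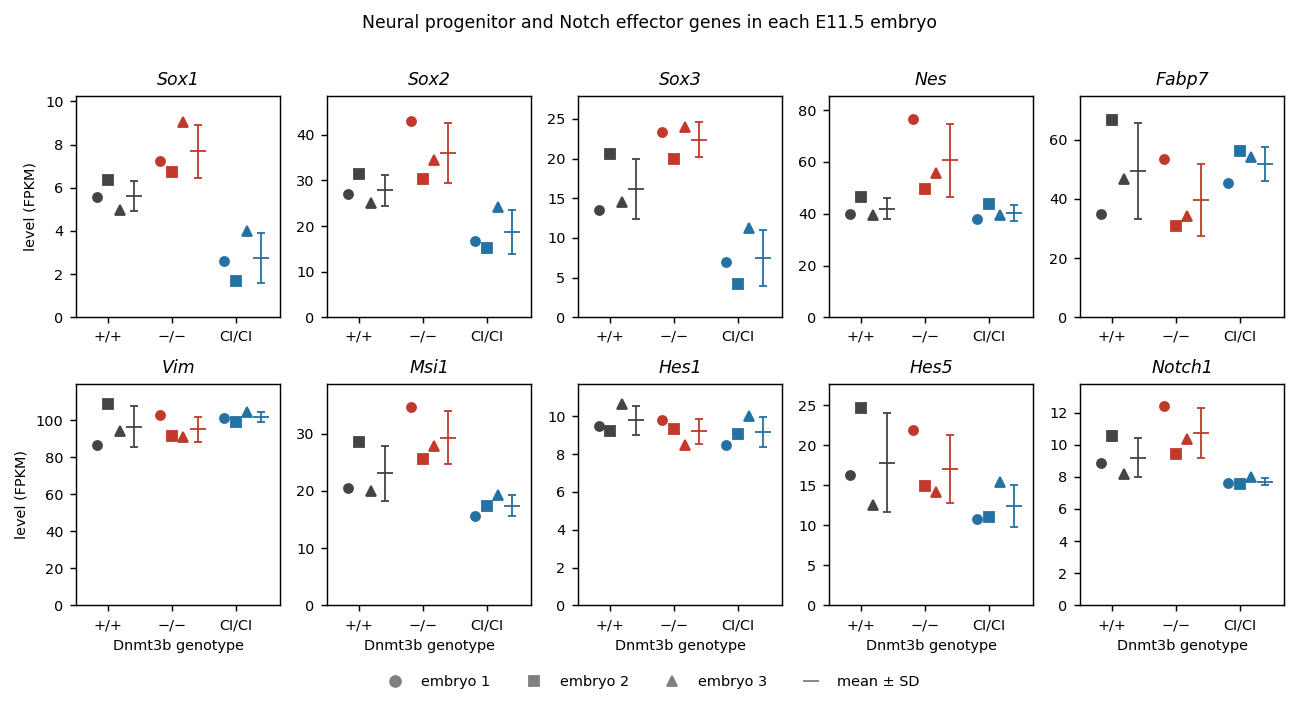
Level in FPKM (linear axes from 0) of each of the 10 genes in each embryo, by Dnmt3b genotype (−/− by label); symbols mark the embryo number within a genotype and the bar the mean with the SD of 3 embryos. The 3 CI/CI embryos lie below all others for Sox1, Sox2 and Sox3, whereas Vim and Hes1 vary by 1.25-fold and 1.26-fold over all 9 embryos.

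Sox1 (chromosome 8, 12395295 to 12400126, GRCm38) had the lowest level of the 10 genes in each genotype. It was at 5.59, 6.35 and 4.97 FPKM in Dnmt3b+/+, at 7.25, 6.75 and 9.05 FPKM in labelled Dnmt3b-/- embryos and at 2.59, 1.69 and 4.004 FPKM in Dnmt3bCI/CI. The 3 genotypes did not overlap, and the Dnmt3bCI/CI embryos had the widest spread, with a CV of 42.2% against 12.3% in Dnmt3b+/+. Between the mutant genotypes the log2 fold change was 1.51 ± 0.26 (SE, n = 3 and 3; limma adjusted p = 0.00505), or 2.86-fold. The log2 fold change against Dnmt3b+/+ was 0.44 ± 0.26 in labelled Dnmt3b-/- embryos (limma adjusted p = 0.252) and −1.08 ± 0.26 in Dnmt3bCI/CI, where the limma p was 0.00302 before and 0.557 after adjustment over all genes.

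Sox3, the X-linked member of the group (chromosome X, 60891366 to 60893430), followed the same order. It was at 13.6, 20.6 and 14.5 FPKM in Dnmt3b+/+, at 23.4, 19.9 and 23.9 FPKM in labelled Dnmt3b-/- embryos and at 6.98, 4.21 and 11.2 FPKM in Dnmt3bCI/CI. Dnmt3b+/+ embryo 2 lay within the range of the labelled Dnmt3b-/- embryos, and no Dnmt3bCI/CI embryo reached the Dnmt3b+/+ range. Between the mutant genotypes the difference was 1.68 ± 0.31 on the log2 scale (SE; limma adjusted p = 0.00634), or 3.20-fold, the largest among the 10 genes. Sox3 and Sox1 were the only members called with at least a 2-fold difference, which 1.10% of all genes reached in this direction. Against Dnmt3b+/+ the log2 fold change was 0.48 (limma adjusted p = 0.279) and −1.19 (unadjusted p = 0.00434 and adjusted p = 0.617, limma) in labelled Dnmt3b-/- and Dnmt3bCI/CI, respectively.

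Sox2, which is also required in pluripotent cells and the foregut (chromosome 3, 34650405 to 34652461), changed less steeply. It was at 26.9, 31.5 and 24.99 FPKM in Dnmt3b+/+, at 43.1, 30.2 and 34.5 FPKM in labelled Dnmt3b-/- embryos and at 16.7, 15.2 and 24.2 FPKM in Dnmt3bCI/CI. Dnmt3b+/+ embryo 2 exceeded the lowest labelled Dnmt3b-/- embryo, and Dnmt3bCI/CI embryo 3 came close to the lowest Dnmt3b+/+ embryo. The mutant genotypes differed by 0.95 ± 0.19 on the log2 scale (SE; limma adjusted p = 0.00823), or 1.94-fold. It was 0.36 in labelled Dnmt3b-/- embryos (limma adjusted p = 0.188) and −0.59 in Dnmt3bCI/CI (unadjusted p = 0.0127 and adjusted p = 0.798, limma) against Dnmt3b+/+.

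The lower SoxB1 values of Dnmt3bCI/CI stood beside low forebrain genes in the same embryos. For this, 6 forebrain genes (Emx1, Six3, Otx1, Fezf2, Tbr1 and Wnt8b) and 8 Hox genes of the trunk were chosen after the values were seen. Their counts below therefore describe the choice and cannot be weighed as a test, and the shares of all genes are given for scale only. All 6 forebrain genes were lower in every Dnmt3bCI/CI embryo than in every Dnmt3b+/+ embryo (background 5.65%), none of them called. Six3 was so only narrowly, at 1.791 FPKM in Dnmt3bCI/CI embryo 3 and 1.793 FPKM in Dnmt3b+/+ embryo 3. Of the 6, 2 (Otx1 and Wnt8b) were called higher in labelled Dnmt3b-/- than in Dnmt3bCI/CI, against 9.70% of all genes. This count was 0 without labelled Dnmt3b-/- embryo 3 and 1 without labelled Dnmt3b-/- embryo 1 or 2, Dnmt3b+/+ embryo 3 or Dnmt3bCI/CI embryo 1. Within Dnmt3bCI/CI, embryo 2 had the lowest forebrain sum and the lowest Sox1, Sox2 and Sox3, and embryo 3 the highest of all 4. Among labelled Dnmt3b-/- embryos, embryo 1 had a forebrain sum of 10.2 FPKM, close to 10.5 FPKM in embryo 2 and below 19.5 FPKM in embryo 3. Embryo 3 had the highest Sox1 and Sox3 of these, and embryo 1 the highest Sox2. The sums of embryos 1 and 2 lay below every Dnmt3b+/+ embryo and near the 10.3 FPKM of Dnmt3bCI/CI embryo 3. Their Sox2 was nevertheless 43.1 and 30.2 FPKM, against 24.2 FPKM in that Dnmt3bCI/CI embryo. The trunk Hox sum was 77.6, 98.9 and 88.8 FPKM in Dnmt3bCI/CI and 43.2 to 62.3 FPKM in Dnmt3b+/+. Of the 8 genes, 0 were called in that comparison and 6 did not overlap (background 7.53%). In labelled Dnmt3b-/- the sum was 98.9, 26.0 and 16.4 FPKM, and 0 of the 8 were called against either other genotype. Without its embryo 1, 5 were lower against Dnmt3b+/+ and 6 against Dnmt3bCI/CI, where 23.6% and 25% of all genes were. Without Dnmt3b+/+ embryo 1, 2 were higher against Dnmt3b+/+, where 8.42% of all genes were. Leaving out labelled Dnmt3b-/- embryo 1, 2 or 3 gave log2 differences between the mutant genotypes of 1.55, 1.60 and 1.39 for Sox1 and 0.82, 1.07 and 0.98 for Sox2, each still called, and of 1.64, 1.76 and 1.63 for Sox3, also called. Without Dnmt3b+/+ embryo 2 and Dnmt3bCI/CI embryo 2, the difference between the mutant genotypes was 1.22 for Sox1, 0.82 for Sox2 and 1.32 for Sox3 on the log2 scale (limma adjusted p = 0.0121, 0.0306 and 0.00901), and that between Dnmt3bCI/CI and Dnmt3b+/+ was −0.69, −0.37 and −0.66, with a limma adjusted p of 1.00 for each. The part of regional differences between the embryos in the SoxB1 values was not tested.

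**Figure D2:**
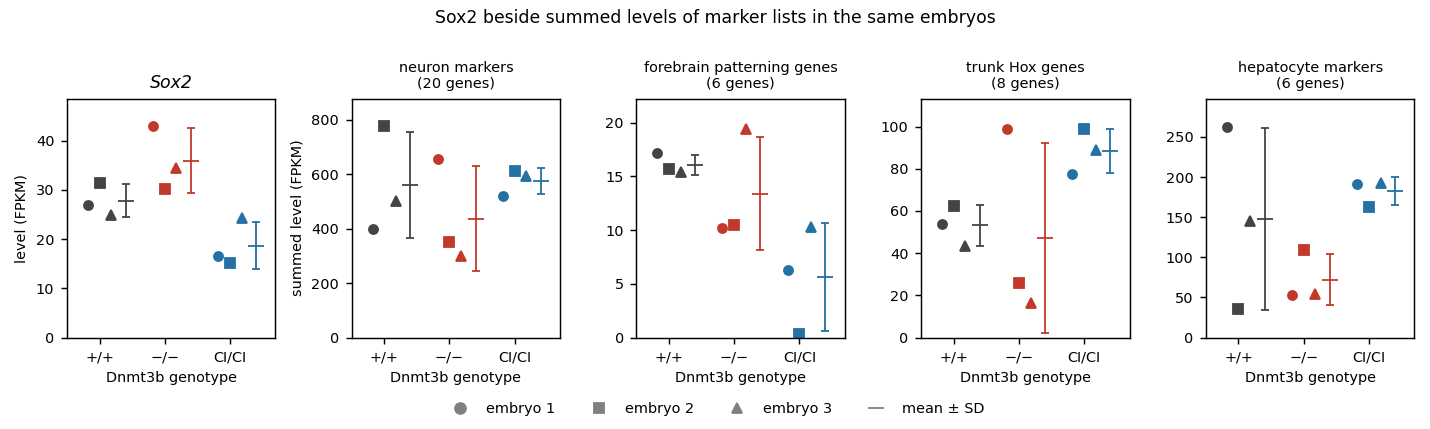
Sox2 in FPKM beside the summed FPKM of 20 neuron markers, 6 forebrain genes, 8 trunk Hox genes and 6 hepatocyte genes in each embryo; symbols mark the embryo number within a genotype, bars the mean with the SD of 3 embryos, and all axes are linear from 0. CI/CI embryo 2 stands at 0.359 FPKM in the forebrain sum and +/+ embryo 2 at 35.9 FPKM in the hepatocyte sum, of which 35.5 FPKM is Ttr and 0.371 FPKM the other 5 genes.

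Nes, which encodes the progenitor intermediate filament nestin (chromosome 3, 87971078 to 87980451), was the member higher in labelled Dnmt3b-/- embryos than in both other genotypes. It was at 39.9, 46.5 and 39.4 FPKM in Dnmt3b+/+, at 76.6, 49.4 and 55.9 FPKM in labelled Dnmt3b-/- embryos and at 38.0, 43.8 and 39.3 FPKM in Dnmt3bCI/CI. Each labelled Dnmt3b-/- embryo exceeded all the others, and embryo 1 stood well above its group. Nes and Sox1 were the 2 members that did not overlap between labelled Dnmt3b-/- and Dnmt3b+/+ embryos, against a background of 15.1%. The log2 fold change was 0.51 ± 0.15 (SE; limma adjusted p = 0.0385) against Dnmt3b+/+ and 0.56 ± 0.15 (SE; limma adjusted p = 0.0256) against Dnmt3bCI/CI. Both calls lay close to the threshold. The first was lost when Dnmt3b+/+ embryo 1 or 3, labelled Dnmt3b-/- embryo 3 or Dnmt3bCI/CI embryo 1, 2 or 3 was left out (limma adjusted p = 0.0881, 0.111, 0.0725, 0.0574, 0.0527 and 0.0599), and the second without labelled Dnmt3b-/- embryo 3 or Dnmt3bCI/CI embryo 1 or 3 (0.0540, 0.0830 and 0.0759). The Dnmt3bCI/CI embryos do not enter the first fold change, so without 1 of them only the spread shared by the model and the adjustment changed. Leaving out labelled Dnmt3b-/- embryo 1 lowered the log2 fold change against Dnmt3b+/+ to 0.33 with the call retained (limma adjusted p = 0.0349).

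Msi1, an RNA-binding protein of neural stem cells that is known to repress translation of the Notch inhibitor Numb (chromosome 5, 115429599 to 115455698), was lowest in Dnmt3bCI/CI. Its levels were 20.5, 28.5 and 20.02 FPKM in Dnmt3b+/+, 34.6, 25.6 and 27.8 FPKM in labelled Dnmt3b-/- embryos and 15.6, 17.4 and 19.3 FPKM in Dnmt3bCI/CI. The Dnmt3bCI/CI range lay below both others, and Dnmt3b+/+ embryo 2 exceeded 2 of the 3 labelled Dnmt3b-/- embryos. The mutant genotypes differed by 0.74 ± 0.16 on the log2 scale (SE; limma adjusted p = 0.0114). Against Dnmt3b+/+ it was 0.35 in labelled Dnmt3b-/- embryos (limma adjusted p = 0.133), which became 0.52 with a limma adjusted p of 0.0362 without Dnmt3b+/+ embryo 2, and −0.39 in Dnmt3bCI/CI (limma adjusted p = 0.930).

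Fabp7, the brain lipid-binding protein of radial glia (chromosome 10, 57784881 to 57788450), was not called in any comparison. It was at 34.9, 66.7 and 46.7 FPKM in Dnmt3b+/+, at 53.4, 30.9 and 34.3 FPKM in labelled Dnmt3b-/- embryos and at 45.3, 56.2 and 54.1 FPKM in Dnmt3bCI/CI. All 3 genotypes overlapped, with a CV of 32.6% in Dnmt3b+/+ and 30.7% in labelled Dnmt3b-/-. The log2 fold change between the mutant genotypes was −0.43, with a 95% interval from −1.02 to 0.16 (limma adjusted p = 0.242).

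Vim, the intermediate filament vimentin (chromosome 2, 13573927 to 13582826), was the most abundant member and is also made by mesenchyme and endothelium, so its level in a whole embryo is not that of progenitors alone. It ranged from 86.7 to 109 FPKM in Dnmt3b+/+, from 90.9 to 103 FPKM in labelled Dnmt3b-/- embryos and from 99.1 to 104 FPKM in Dnmt3bCI/CI. The interval of its log2 fold change was −0.22 to 0.19 for labelled Dnmt3b-/- against Dnmt3b+/+ and −0.13 to 0.29 for Dnmt3bCI/CI against Dnmt3b+/+.

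**Figure D3:**
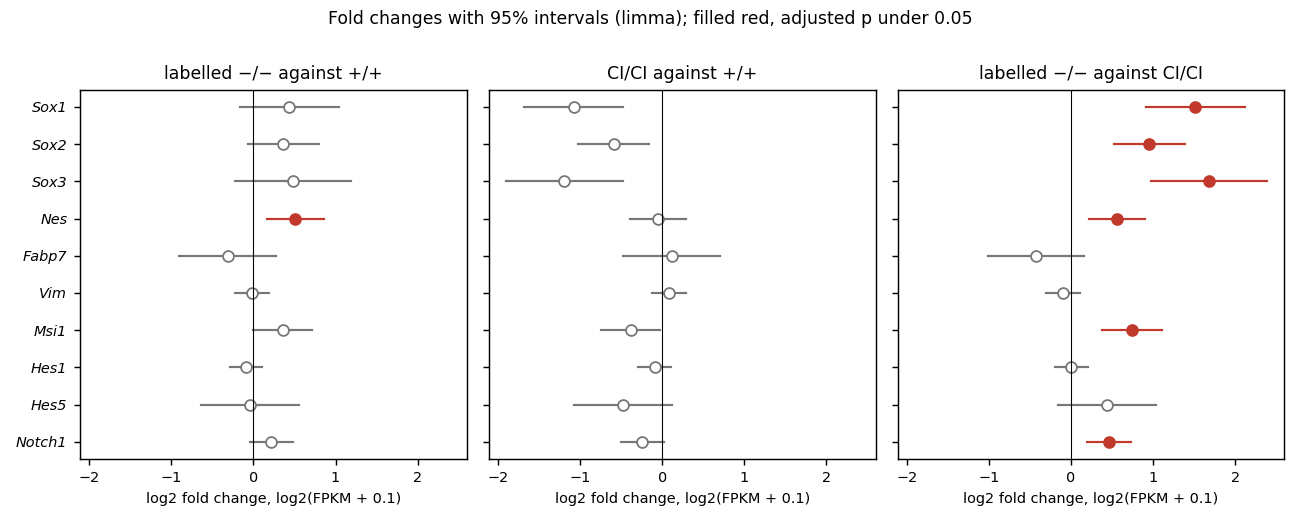
Log2 fold change of each of the 10 genes on the log2(FPKM + 0.1) scale with its 95% interval (limma, 3 embryos a genotype) in the 3 comparisons; filled red points have an adjusted p under 0.05. There are 6 filled genes in the comparison of the mutant genotypes, Nes alone in labelled −/− against +/+, and none in CI/CI against +/+.

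Notch1, the receptor, moved with the SoxB1 genes but by less. Notch1 (chromosome 2, 26457903 to 26516663) was at 8.85, 10.5 and 8.20 FPKM in Dnmt3b+/+, at 12.4, 9.39 and 10.4 FPKM in labelled Dnmt3b-/- embryos and at 7.60, 7.55 and 7.97 FPKM in Dnmt3bCI/CI. The Dnmt3bCI/CI embryos lay close together and below all others. The log2 fold change between the mutant genotypes was 0.46 ± 0.12 (SE; limma adjusted p = 0.0203), and the adjusted p rose to 0.0525 without labelled Dnmt3b-/- embryo 3 and to 0.0637, 0.0628 and 0.0506 without Dnmt3bCI/CI embryo 1, 2 or 3. Against Dnmt3b+/+, Notch1 differed by 0.22 in labelled Dnmt3b-/- (limma adjusted p = 0.195) and by −0.24 in Dnmt3bCI/CI (limma adjusted p = 0.949). Of its exon bases, 1068 (7.50%) and 414 (2.91%) are shared with 2 antisense transcripts, and whether the counting used strand is not stated, so reads of these genes cannot be told apart.

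The Notch effectors Hes1 and Hes5 were not called in any comparison. Hes1 (chromosome 16, 30064384 to 30067796), which is also active outside the nervous system, was at 9.50, 9.22 and 10.6 FPKM in Dnmt3b+/+, at 9.80, 9.33 and 8.46 FPKM in labelled Dnmt3b-/- embryos and at 8.47, 9.04 and 10.01 FPKM in Dnmt3bCI/CI. The genotypes overlapped throughout, and the difference between the mutant genotypes was 0.00 with a 95% interval from −0.19 to 0.20 on the log2 scale. Hes5 (chromosome 4, 154960923 to 154962371), which is largely restricted to neural progenitors, was far more variable. It was at 16.3, 24.7 and 12.6 FPKM in Dnmt3b+/+, at 21.9, 15.0 and 14.2 FPKM in labelled Dnmt3b-/- embryos and at 10.9, 11.03 and 15.5 FPKM in Dnmt3bCI/CI, so that 2 of the 3 Dnmt3bCI/CI embryos lay below every other embryo. The log2 fold change of Hes5 was −0.04 in labelled Dnmt3b-/- (95% interval −0.64 to 0.56) and −0.48 in Dnmt3bCI/CI (95% interval −1.08 to 0.12) against Dnmt3b+/+, intervals that leave room for a change of the size seen for Sox2. Hes5 shares 433 exon bases (31.8%) with the antisense transcript Gm20421, whose values follow it closely (16.9, 25.7 and 12.6 FPKM in Dnmt3b+/+), so part of either value may be reads of the other.

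Across the 10 genes, the median log2 fold change was 0.29 in labelled Dnmt3b-/- and −0.31 in Dnmt3bCI/CI against Dnmt3b+/+, and 0.51 between the mutant genotypes, beside −0.07, 0.02 and −0.08 over all genes tested. With single embryos left out, the first median ran from 0.17 (without labelled Dnmt3b-/- embryo 1) to 0.39, the second from −0.40 to −0.18 (without Dnmt3b+/+ embryo 2) and the last from 0.37 to 0.63. In all, 5 members (Sox1, Sox2, Sox3, Msi1 and Notch1) were lower in every Dnmt3bCI/CI embryo than in every Dnmt3b+/+ embryo, against a background of 5.65%, and 4 of them (all but Notch1) had a limma p under 0.05 before adjustment, against 2.55% of all genes. No call in this comparison was made after adjustment, so the lower SoxB1 level of Dnmt3bCI/CI rests on 3 embryos a group and does not pass the test over all genes. Both comparisons against Dnmt3b+/+ share the same 3 control embryos. Dnmt3b+/+ embryo 2, in which Afp and Alb were near the floor, was the highest of its group for every member except Hes1. The genes closest to Sox1 over the 9 embryos, by the root mean square difference of centred log2 levels, were Sox3 (0.146), Dmrt3 (0.264), Sp8 (0.273), Nuak2 (0.293) and Fam167a (0.299), where the median over 12796 genes was 0.738. For Sox2 they were Gm43352 (0.151), Sox21 (0.152), Nuak2 (0.154), Msi1 (0.170) and Crb2 (0.184), where the median was 0.484. Among those closest to Hes5 were Gm20421 (0.0527), which shares exon bases with it, Gsx1 (0.127), Insm1 (0.152) and Pou3f3 (0.152), where the median was 0.418. These likenesses describe 9 libraries that share genotype and tissue composition.

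Of 8 further Notch ligands and receptors, 1 was called higher and 1 lower in labelled Dnmt3b-/- embryos against Dnmt3b+/+ (median 0.16 on the log2 scale), a number near the background of 9.41% and 16.4%. Notch3, a receptor prominent in vascular smooth muscle and in neural progenitors, was at 19.2, 19.7 and 20.04 FPKM in Dnmt3b+/+, at 26.7, 24.5 and 25.8 FPKM in labelled Dnmt3b-/- embryos and at 17.4, 17.9 and 17.7 FPKM in Dnmt3bCI/CI. It rose by 0.38 on the log2 scale (SE 0.05; limma adjusted p = 0.00173), with no overlap between the groups. The receptor Notch2 fell by 0.32 (limma adjusted p = 0.0113), from 9.87 to 11.8 FPKM in Dnmt3b+/+ to 8.43 to 8.78 FPKM. Between the mutant genotypes, 2 were higher, Notch3 and the ligand Dll1, and Notch2 was lower, against 9.70% and 18.2% of all genes. Without labelled Dnmt3b-/- embryo 3 or any 1 Dnmt3bCI/CI embryo 1 was higher, without Dnmt3b+/+ embryo 2 3 were, and without labelled Dnmt3b-/- embryo 1 2 were lower and the median against Dnmt3b+/+ was 0.0096.

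Of 17 genes of receptor processing and the nuclear complex, with the ligand Dlk1 among them, 3 were called lower in labelled Dnmt3b-/- embryos. That share was near the background of 16.4% lower, 0 were called higher and the median was −0.074. Without Dnmt3b+/+ embryo 2 and Dnmt3bCI/CI embryo 2, 1 of the 17 was lower. The lower count was 1 without Dnmt3b+/+ embryo 3 (9.21% of all genes) or labelled Dnmt3b-/- embryo 2 (8.19%) or 3 (8.64%). It was 5 without labelled Dnmt3b-/- embryo 1, where 23.6% of all genes were lower. Dlk1, a non-canonical ligand encoded by an imprinted gene, was at 58.9, 60.0 and 75.2 FPKM in Dnmt3b+/+, at 28.7, 27.7 and 26.5 FPKM in labelled Dnmt3b-/- embryos and at 70.2, 66.1 and 66.0 FPKM in Dnmt3bCI/CI. It fell by 1.22 on the log2 scale (limma adjusted p = 1.8e-04), the largest change among these Notch genes, with both other genotypes well above. Maml2, a coactivator of cleaved Notch, fell by 0.38 and the Numb relative Numbl by 0.54 (limma adjusted p = 0.0177 and 0.0226). These 2 calls were lost in 6 and 7 of the 18 alternatives. Between the mutant genotypes 1 of the 17 was higher and 4 were lower, near the background of 9.70% and 18.2%. The lower calls were 6 without labelled Dnmt3b-/- embryo 1, 2 without embryo 2 or Dnmt3b+/+ embryo 3, and 1 without labelled Dnmt3b-/- embryo 3 or any 1 Dnmt3bCI/CI embryo.

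Among 9 other Notch targets and relatives of Hes, 3 rose (Id1, Id3 and Nrarp) and 1 fell (Hey2) in labelled Dnmt3b-/- embryos (median 0.22), against backgrounds of 9.41% and 16.4%. Nrarp, a feedback inhibitor induced by Notch, was at 14.1, 18.3 and 13.7 FPKM in Dnmt3b+/+ and at 26.8, 19.7 and 20.2 FPKM in labelled Dnmt3b-/- embryos, against 11.8, 13.9 and 14.1 FPKM in Dnmt3bCI/CI. Its log2 fold change against Dnmt3b+/+ was 0.52 (limma adjusted p = 0.0333), a call lost in 9 of the 18 alternatives. Id1 and Id3, inhibitors of proneural factors that are best known as targets of BMP signaling, rose by 0.68 and 0.52 (limma adjusted p = 8.8e-04 and 0.0194), the second losing its call in 3 alternatives. Hey2, an effector prominent in heart and vessels, fell by 0.68 (limma adjusted p = 0.00313), with 1.42 to 1.52 FPKM in Dnmt3b+/+ and 0.795 to 0.968 FPKM in labelled Dnmt3b-/- embryos. In labelled Dnmt3b-/- against Dnmt3bCI/CI, 3 of the 9 were higher and 2 lower, against 9.70% and 18.2% of all genes. With single embryos left out, 1 (without Dnmt3b+/+ embryo 3 or labelled Dnmt3b-/- embryo 2) to 4 were higher and 1 or 2 lower (2 without Dnmt3b+/+ embryo 1 or labelled Dnmt3b-/- embryo 1) against Dnmt3b+/+, and 3 or 4 were higher and 1 to 3 lower between the mutant genotypes.

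**Figure D4:**
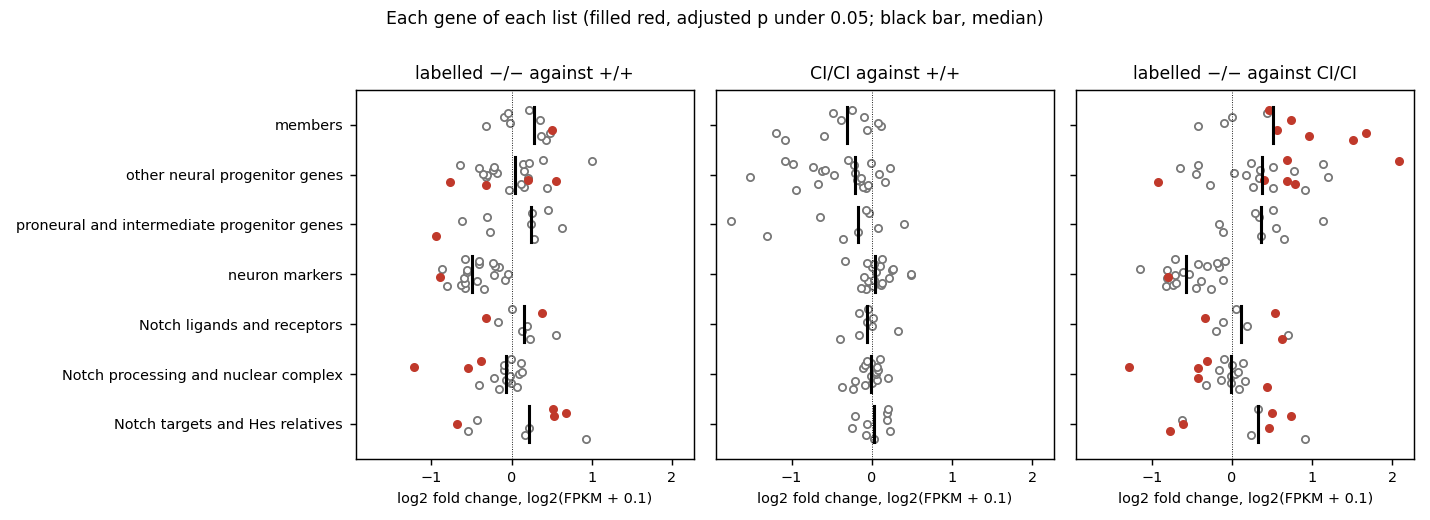
Log2 fold change on the log2(FPKM + 0.1) scale of every gene of 7 lists in the 3 comparisons; each point is a gene, filled red at a limma adjusted p under 0.05, and the black bar is the median of the list. The 20 neuron markers lie at or below 0 in labelled −/− against +/+ (median −0.49) with 1 filled, while the 10 members have a median of 0.29 with 1 filled.

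Of 22 further progenitor genes, 2 were higher and 2 lower in labelled Dnmt3b-/- against Dnmt3b+/+ (median 0.04), which is at or below the background of 9.41% and 16.4%, 0 were called in Dnmt3bCI/CI (median −0.21), and 5 were higher and 1 lower between the mutant genotypes (median 0.37), against 9.70% and 18.2%. The last counts were 7 higher and 5 lower without labelled Dnmt3b-/- embryo 1, where 12.4% and 25% of all genes were. The higher count was 7 without Dnmt3b+/+ embryo 2 (10.8% of all genes) or Dnmt3bCI/CI embryo 3 (5.93%). It was 3 without Dnmt3bCI/CI embryo 1 (5.61%) or 2 (6.08%). Against Dnmt3b+/+, 1 to 3 were higher and 0 to 5 lower with single embryos left out. The medians ran from −0.17 (without labelled Dnmt3b-/- embryo 3) to 0.081. The 5 lower came without labelled Dnmt3b-/- embryo 1, where 23.6% of all genes were lower. Prom1, the stem-cell surface protein CD133, was at 4.31, 3.79 and 3.71 FPKM in Dnmt3b+/+, at 5.08, 5.69 and 6.73 FPKM in labelled Dnmt3b-/- embryos and at 3.88, 3.33 and 3.48 FPKM in Dnmt3bCI/CI, and it rose by 0.55 (limma adjusted p = 0.0104) with no overlap. Msi2, the relative of Msi1, rose by 0.21 (limma adjusted p = 0.0387). Slc1a3, the glutamate transporter of radial glia and astrocytes, fell by 0.76 (limma adjusted p = 0.0191), and Sox9, which is needed for glial fate and cartilage, fell by 0.32 (limma adjusted p = 0.0420). The calls of Msi2, Slc1a3 and Sox9 were lost in 10, 7 and 11 of the 18 alternatives, whereas that of Prom1 was kept in all.

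The genes that Hes factors repress and the neurons that follow were compared last. Of 9 proneural and intermediate progenitor genes, 1 was lower and 0 were higher in labelled Dnmt3b-/- (median 0.24, against backgrounds of 16.4% and 9.41%), and none was called in the other 2 comparisons with all embryos. The sign of that median rested on single embryos, with −0.040 and −0.019 without labelled Dnmt3b-/- embryo 1 or 2 and −0.0040 and −0.12 without Dnmt3b+/+ embryo 1 or 3. With single embryos left out, 0 to 2 were called lower and 0 or 1 higher there, and at most 1 in each of the other comparisons. The 2 lower came without labelled Dnmt3b-/- embryo 1, where 23.6% of all genes were lower. Neurog2, a proneural factor, was at 16.7, 19.5 and 15.2 FPKM in Dnmt3b+/+, at 10.04, 7.40 and 9.20 FPKM in labelled Dnmt3b-/- embryos and at 6.67, 4.57 and 10.5 FPKM in Dnmt3bCI/CI. Both mutant genotypes lay below all Dnmt3b+/+ embryos, by −0.95 (limma adjusted p = 0.0314, lost in 8 of the 18 alternatives) and −1.30 (limma adjusted p = 0.292) on the log2 scale. The 20 neuron markers had log2 fold changes from −0.89 to −0.04 in labelled Dnmt3b-/- against Dnmt3b+/+, with a median of −0.49, and 1 was called, Syt1, the calcium sensor of synaptic vesicles (−0.89; limma adjusted p = 0.0336, lost in 12 of the 18 alternatives), below the background of 16.4%. These values depended on single embryos. Without Dnmt3b+/+ embryo 2 the median was −0.20, 4 of the 20 lay above 0 and 0 were called. Without labelled Dnmt3b-/- embryo 1 the median was −0.75 and 12 were called lower, where 23.6% of all genes were, and without embryo 2 or 3 it was −0.35 and −0.26 with 0 called. In Dnmt3bCI/CI the median was 0.04 with 0 called, and it was 0.28 with 19 of the 20 above 0 and 0 called once Dnmt3b+/+ embryo 2 was left out and −0.13 once embryo 1 was. All 20 lay below 0 in labelled Dnmt3b-/- against Dnmt3bCI/CI, with a median of −0.57 and 1 called (background 18.2%). Without labelled Dnmt3b-/- embryo 1 that median was −0.91 with 13 called lower, where 25.0% of all genes were. Without Dnmt3b+/+ embryo 2, 5 were called lower, where 21.2% of all genes were. Without Dnmt3b+/+ embryo 3, labelled Dnmt3b-/- embryo 2 or 3 or any 1 Dnmt3bCI/CI embryo, 0 were called. The summed neuron markers ranged from 400 to 779 FPKM in Dnmt3b+/+, with the maximum in embryo 2, and were 657, 353 and 301 FPKM in labelled Dnmt3b-/- embryos. Embryo 1 of the latter thus had both the highest Sox2, Nes, Msi1 and Notch1 of all 9 embryos and a neuron sum above 2 of the 3 Dnmt3b+/+ embryos, while embryos 2 and 3 paired Dnmt3b+/+ or higher SoxB1 levels with the lowest neuron sums.

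Markers of other tissues moved with the labelled Dnmt3b-/- embryos too. Against Dnmt3b+/+, 5 of 8 mesenchyme markers fell and 1 rose (Twist1), with Col1a1 down by 1.23 on the log2 scale, and 5 of 8 skeletal muscle markers fell, with Acta1 down by 1.17, against backgrounds of 16.4% lower and 9.41% higher. The muscle markers had a median of −0.99, which was −0.91 with all 8 below 0 and 0 called without Dnmt3b+/+ embryo 2 and Dnmt3bCI/CI embryo 2. With single embryos left out, 1 to 7 muscle markers were called lower, and 5 mesenchyme markers in each case. For muscle, 1 was called without Dnmt3b+/+ embryo 3 or labelled Dnmt3b-/- embryo 2, and 2 without Dnmt3b+/+ embryo 2 or labelled Dnmt3b-/- embryo 3. Of the mesenchyme markers, 2 were higher without labelled Dnmt3b-/- embryo 1 and 1 otherwise, here and between the mutant genotypes. Without that embryo 12.1% and 12.4% of all genes were higher in these comparisons. Of 5 neural crest markers, 0 were called, with a median of −0.61. Before adjustment 3 had a limma p under 0.05, against 14.6% of all genes higher and 25.4% lower. Without labelled Dnmt3b-/- embryo 1, 4 were called lower, where 23.6% of all genes were. Erythroid markers had 2 of 6 higher (Hbb-bh1 and Hba-x, globins of primitive red cells). This count was 1 without Dnmt3b+/+ embryo 3 or labelled Dnmt3b-/- embryo 3 (5.82% and 5.62% of all genes). It was 3 without labelled Dnmt3b-/- embryo 1 (12.1%), and the erythroid median of 0.54 ran from 0.19 to 0.97. Hepatocyte markers had 1 of 6 lower, with a median of 0.57. The 1 was Ttr, which is also made by the choroid plexus and yolk sac and was highest in Dnmt3b+/+ embryo 2. Without Dnmt3b+/+ embryo 2 alone 4 of the 6 hepatocyte markers were called lower, without it and Dnmt3bCI/CI embryo 2 3 were, and the median was −1.44 in both cases. Of 8 endothelial markers, 0 were called. Kdr (higher) and Esam (lower) had a limma p under 0.05 before adjustment, where 14.6% of all genes were higher and 25.4% lower. Leaving out labelled Dnmt3b-/- embryo 1 gave 2 called lower, where 23.6% of all genes were. In Dnmt3bCI/CI against Dnmt3b+/+ no marker of these lists was called. In the comparison of both mutant genotypes, 6 of 8 muscle, 5 of 8 mesenchyme, 3 of 8 endothelial, 3 of 5 neural crest and 1 of 6 hepatocyte markers were lower in labelled Dnmt3b-/- embryos against a background of 18.2%, and 2 of 6 erythroid and 1 of 8 mesenchyme markers were higher against 9.70%. With single embryos left out, the lower calls of this comparison numbered 5 in each case for mesenchyme, 5 to 7 for muscle, 1 (without labelled Dnmt3b-/- embryo 3 or Dnmt3bCI/CI embryo 1 or 3) to 5 (without labelled Dnmt3b-/- embryo 1) for endothelial, 0 (without labelled Dnmt3b-/- embryo 2 or 3 or Dnmt3bCI/CI embryo 1 or 2) to 4 for neural crest and 0 to 4 (without Dnmt3b+/+ embryo 2) for hepatocyte markers. Summed mesenchyme markers were 278 to 301 FPKM in labelled Dnmt3b-/- embryos against 397 to 460 FPKM in Dnmt3b+/+ and 431 to 507 FPKM in Dnmt3bCI/CI. The part of a changed share of these tissues in the levels of the 10 genes was not tested.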

How the data were processed

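Whole-embryo RNA-seq libraries at E11.5 were used, 3 embryos for each of 3 Dnmt3b genotypes, and the bisulfite libraries of the series were not analysed here. The authors aligned paired-end reads to mm10 with STAR, filtered on mapping quality, quantified genes in SeqMonk and deposited 1 table in FPKM on the linear scale. Per the labels, DESeq2 was among their tools. The annotation release and strandedness are not given in the sources used here. Genes with no read hold a small floor value, equal to 0.9 of a read. Library totals were worked back from that floor and the exon lengths of GENCODE M21, after which 89.2% to 90.1% of values between 1 and 10 reads were whole within 0.05. Coordinates are those of GENCODE M21 on GRCm38.

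The deposited values are not counts, so limma 3.58.1 in R 4.3.3 was run on log2(FPKM + 0.1), with a variance trend and all 9 embryos in 1 model without a replicate block. Of the 34245 genes, 1 has no name and was left out, and the 19397 with at least 0.1 FPKM in at least 3 embryos were tested. All 10 members passed this filter. Genes were called at a Benjamini-Hochberg adjusted p under 0.05. Fold changes on this scale understate those of low genes. Beside the members, at most 4 genes a list were named, those with the smallest adjusted p in labelled Dnmt3b-/- against Dnmt3b+/+ among the genes called against Dnmt3b+/+. Otx1, Wnt8b, Dll1, Twist1, Kdr, Esam, Emx1, Afp, Alb, Hoxb9 and Hoxa10 were named after their values were seen. Genes most like Sox1, Sox2 and Hes5 were sought among 12796 genes with a mean of at least 1 FPKM. The members and lists were chosen with earlier results of these data known. Several genes of these lists are not reported here and enter no list count or sum. The model was tested on simulated data. The 18 alternatives were a pseudocount of 0.01 or 1, no filter or a filter of 1 FPKM, median-of-ratios scaling, quantile normalization, only the 2 genotypes compared, a replicate block, each embryo left out and, added after seeing the data, 2 embryos left out together. Tables were handled with python 3.11.15 and pandas 2.3.3.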

Additional observations from a re-analysis of the deposited data

How the results depend on the processing

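The higher Sox1, Sox2, Sox3 and Msi1 of labelled Dnmt3b-/- against Dnmt3bCI/CI were called under all 18 alternatives, with log2 fold changes from 1.22 to 1.81, 0.82 to 1.16, 1.32 to 2.02 and 0.62 to 0.83. The number of members called higher there was 4 to 6. The only member called against Dnmt3b+/+, Nes, was lost, leaving 0 called, without a filter, with quantile normalization, with only the 2 genotypes and without both Dnmt3b+/+ embryo 2 and Dnmt3bCI/CI embryo 2, and leaving out single embryos gave 0 to 2 members. Uncalled values near 0 changed sign. Vim in labelled Dnmt3b-/- against Dnmt3b+/+ ran from −0.092 to 0.070 and Hes5 from −0.26 to 0.22 over the embryos left out singly, with 0.070 and 0.22 when both doubted embryos were left out. For Dnmt3bCI/CI against Dnmt3b+/+, Nes ran from −0.11 to 0.024 and Fabp7 from −0.11 to 0.36. Hes1 between the mutant genotypes ran from −0.051 to 0.068, and was −0.0046 without both doubted embryos. The causes were not tested.

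Over all genes, labelled Dnmt3b-/- against Dnmt3b+/+ gave 1826 higher and 3175 lower, which became 1011 and 1729 with only the 2 genotypes, 856 and 1710 without both doubted embryos, 2044 lower with quantile normalization, and 808 to 2323 higher and 1580 to 4536 lower over the embryos left out singly. Dnmt3bCI/CI against Dnmt3b+/+ gave 25 higher and 3 lower, with 12 higher and 0 lower without both doubted embryos, 7 lower without a filter, 5 lower with either other scaling, and 18 to 27 higher and 1 to 5 lower over single embryos. Between the mutant genotypes, 1882 higher and 3525 lower became 2840 and 2281 with quantile normalization, and ran from 1016 to 2387 and 1954 to 4812 over single embryos.

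Embryos that share a number across genotypes did not deviate together on average, with a mean correlation of −0.0865 (−0.34 to 0.215, 9 pairs). The mean was 0.0478 for the 18 other pairs, and the number was treated as a name only. These values cannot show whether any pair shared a litter or a batch. A replicate block gave 1075 higher and 1954 lower genes in labelled Dnmt3b-/- against Dnmt3b+/+, 1 lower in Dnmt3bCI/CI and 1212 higher between the mutant genotypes, with 0 members called in the first and 4 in the last. With 3 embryos a genotype, an exact permutation test of a single value cannot go below p = 0.1. Strandedness, tissue composition and the spread between embryos limit the values beside depth.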
